A study of Rattus norvegicus with 6 samples.

Results

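The transcripts of 4 cytokinesis genes, Anln (anillin), Ect2, Prc1 and Arhgap11a, were lower in cultured heart cells treated with antiretroviral drugs (ARVs). The genes were taken by name from the table of differentially expressed genes, where all 4 were found among the 1756 genes listed. The cells were neonatal rat ventricular cardiomyocytes (NRVCs), prepared from the heart ventricles (left ventricles, by the methods of the study) of Harlan Sprague–Dawley rat pups aged 2 to 3 days and plated at 100000 cells per well. The ARVs libraries came from NRVCs exposed for 24 h to a mix of Ritonavir, Atazanavir, Abacavir and Lamivudine, given as 5 µM ARVs, and the DMSO libraries from NRVCs given the solvent for the same time, with 3 libraries per group. NRVCs are a primary culture that can also hold fibroblasts, smooth muscle cells and other ventricular cells, and the sources do not state how many preparations the libraries represent.

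Cytokinesis is the step in which the dividing cell splits its cytoplasm. After the chromosomes part, antiparallel microtubules between them are bundled into the central spindle. That structure positions a zone of active RhoA, a small GTPase, which assembles a ring of actin and myosin below the cell surface. Newborn rodent heart muscle cells still enter mitosis but soon stop completing cytokinesis, which leaves cells with more than 1 nucleus. Prc1 encodes the protein that bundles the midzone microtubules. Ect2 encodes the exchange factor that loads RhoA with GTP at the equator, and Arhgap11a a GTPase-activating protein that turns RhoA off. Anln encodes the scaffold that links RhoA, actin, myosin and septins in the ring.

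The promoters of the 4 genes are shown because the genes moved together. Each window runs from 250 bases before to 50 after a transcription start site, 5′ to 3′ on the strand of the gene, from RefSeq on build GRCr8, matched by symbol. Anln lies at chr8:29197464-29197763 (minus strand), Ect2 at chr2:111966577-111966876 (minus strand), Prc1 at chr1:143659231-143659530 (plus strand) and Arhgap11a at chr3:121061419-121061718 (minus strand). Capitals mark TTTGAA, the cell cycle homology region found in promoters of late cell cycle genes, and CCAAT, the site read by NF-Y. Both were searched on both strands, so that a match on the other strand reads TTCAAA or ATTGG, and no matches overlapped each other.
Anln: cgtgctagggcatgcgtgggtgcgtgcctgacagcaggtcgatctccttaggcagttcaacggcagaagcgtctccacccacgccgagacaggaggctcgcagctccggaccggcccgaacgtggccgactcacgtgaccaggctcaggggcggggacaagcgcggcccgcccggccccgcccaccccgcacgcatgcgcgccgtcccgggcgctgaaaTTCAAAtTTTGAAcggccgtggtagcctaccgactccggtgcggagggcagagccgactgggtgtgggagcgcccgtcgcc
Ect2: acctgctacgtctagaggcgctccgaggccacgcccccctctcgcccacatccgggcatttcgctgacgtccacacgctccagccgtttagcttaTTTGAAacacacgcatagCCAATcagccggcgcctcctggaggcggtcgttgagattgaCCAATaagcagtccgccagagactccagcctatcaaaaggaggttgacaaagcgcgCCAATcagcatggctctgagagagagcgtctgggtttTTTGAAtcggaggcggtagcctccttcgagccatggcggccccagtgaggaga
Prc1: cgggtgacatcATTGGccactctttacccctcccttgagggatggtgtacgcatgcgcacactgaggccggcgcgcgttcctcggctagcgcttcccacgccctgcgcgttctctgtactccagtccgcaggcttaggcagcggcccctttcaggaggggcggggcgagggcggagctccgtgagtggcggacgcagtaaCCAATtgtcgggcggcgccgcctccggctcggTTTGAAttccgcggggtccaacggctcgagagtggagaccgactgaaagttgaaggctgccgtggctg
Arhgap11a: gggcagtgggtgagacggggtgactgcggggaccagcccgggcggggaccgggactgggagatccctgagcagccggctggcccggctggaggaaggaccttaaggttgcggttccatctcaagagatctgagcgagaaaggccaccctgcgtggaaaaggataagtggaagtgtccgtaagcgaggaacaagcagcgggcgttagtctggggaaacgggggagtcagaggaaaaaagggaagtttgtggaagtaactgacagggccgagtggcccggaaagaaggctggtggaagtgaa

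TTTGAA was found in the windows of Anln, Ect2 and Prc1 and not in that of Arhgap11a. In Anln the leftmost base of the match lay 24 bases before the start site, with another on the opposite strand 31 bases before it. In Ect2 the matches lay 3 and 155 bases before the start site, and in Prc1 the match lay 18 bases before it. CCAAT was found in Ect2, at 40, 96 and 137 bases before the start site, and in Prc1, at 50 bases before it and on the opposite strand at 239. Among windows of the same length, 1 per gene symbol, 18.1% of 27457 held TTTGAA and 37.7% held CCAAT. A match beginning in the 50 bases before the start site, a window chosen after the matches were seen, was found in 2.76% of them for TTTGAA and in 8.02% for CCAAT. The RefSeq gene of Arhgap11a reaches 10517 bases further upstream than the start site of its window, and those of Prc1 and Ect2 reach 169 and 160 bases further, so these 3 windows are not at the outermost start of the gene. These matches are letters in a window and say nothing about which factor was bound.

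Each library held 4329218 to 5871352 counts over the listed genes, of 17347680 to 22126119 counts in all as the FPKM values imply. The 4 genes had 500 to 3521 raw counts per library. Values below are normalized counts, which are raw counts divided by the size factor that the authors had used for each library. DMSO replicate 2 stood apart over the listed genes. The chi-square of its counts, per degree of freedom, was 29.3 against DMSO replicate 1 and 32.0 against DMSO replicate 3. Between the latter it was 5.54, and between ARVs libraries 4.84 to 6.44. The results are therefore also given without it.

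Prc1, the bundler of the midzone, is annotated on chromosome 1 at 142087208 to 142108746 (plus strand, release 97). In DMSO replicates 1, 2 and 3 it had 3148, 3397 and 3178 normalized counts. The ARVs libraries, in the same order, held 1587, 1678 and 1584. The groups did not overlap, and DMSO replicate 2 was the highest library. By the quasi-likelihood test of edgeR the log2 fold change of Prc1 was -1.0 (standard error, SE, 0.05, 95% interval -1.12 to -0.89, adjusted p = 1.6e-05). This left 49.9% of the DMSO level, from 3241 ± 136 to 1616 ± 53.6 (SD, n = 3 each).

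Ect2, the activator of RhoA, is annotated on chromosome 2 at 112769385 to 112831476 (minus strand, release 97). It had 1519, 1242 and 1504 normalized counts in DMSO replicates 1, 2 and 3. With ARVs it had 546, 621 and 562. Again no library of one group reached the other, but here DMSO replicate 2 was the lowest of its group. For Ect2 the same edgeR test gave -1.30 (SE 0.09, 95% interval -1.51 to -1.09, adjusted p = 3.2e-05), from 1421 ± 156 to 576 ± 39.4 (SD, n = 3 each). ARVs thus left 40.6% of its DMSO level.

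Arhgap11a, which turns RhoA off, is annotated on chromosome 3 at 105281827 to 105298108 (minus strand, release 97). Its normalized counts were 2130.0, 2024 and 2022 in the DMSO libraries, by replicate number, and 898, 1015 and 906 in the ARVs libraries. The DMSO libraries were close together and all lay above the ARVs libraries. The log2 fold change was -1.13 (SE 0.06, 95% interval -1.27 to -0.99, edgeR adjusted p = 1.8e-05). This left 45.7% of the DMSO level, from 2059 ± 61.8 to 939.9 ± 65.4 (SD, n = 3 each).

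Anln, the scaffold of the ring, is annotated on chromosome 8 at 23337621 to 23390773 (minus strand, release 97). It had 3168, 2731 and 3209 normalized counts in DMSO replicates 1, 2 and 3. With ARVs the counts were 1570.0, 1533 and 1469. DMSO replicate 2 was the lowest of its group, as for Ect2, and still lay above every ARVs library. Its log2 fold change was -0.99 (SE 0.07, 95% interval -1.15 to -0.84, edgeR adjusted p = 3.1e-05). Of the DMSO level 50.2% was left, from 3036 ± 265 to 1524 ± 51.2 (SD, n = 3 each).

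**Figure D1:**
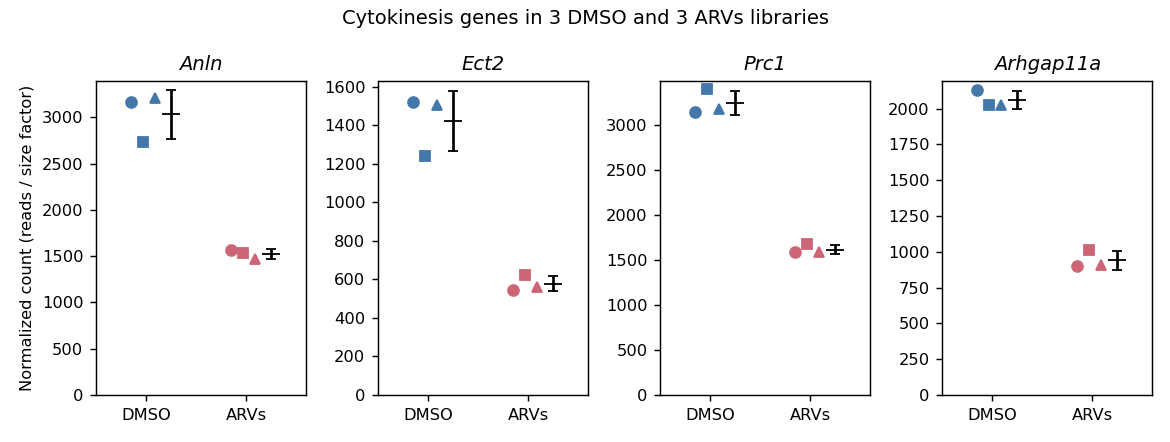
Normalized counts (vertical axis, raw reads divided by the size factor of the library, from 0) of Anln, Ect2, Prc1 and Arhgap11a in DMSO and ARVs libraries. Circles, squares and triangles are replicates 1, 2 and 3, and the bar beside them is the mean ± SD (n = 3); in each panel the 3 ARVs libraries lie below the 3 DMSO libraries, and DMSO replicate 2 is lowest for Anln and Ect2 and highest for Prc1.

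At the threshold of 0.05 on the adjusted p, 4 of the 4 genes were lower, and in none of them did the groups overlap. Of the 1751 genes tested, 60.1% were lower, 100% passed in either direction, and 56.8% had every ARVs library below every DMSO library. Genes entered the table only if the authors had called them, on these same libraries. The count of 4 is thus no independent evidence of change, and what the values add is its size and spread. The median log2 fold change over the tested genes was -0.25. Ordered from the most lowered gene, Ect2 stood at place 47 of 1751, Arhgap11a at 80, Prc1 at 129 and Anln at 133. With TMM over the listed genes 50.4% of them were lower, with median-ratio factors 30.6%, and all 4 cytokinesis genes were lower with either. RNA was taken from whole cultures, so fewer dividing cells and less RNA per dividing cell cannot be told apart.

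The spread between DMSO libraries was well above counting for Anln and Ect2 and nearer to it for Prc1 and Arhgap11a. In the DMSO group the coefficient of variation was 8.72% for Anln and 11% for Ect2, where their raw counts give 1.79% and 2.62% from counting. For Prc1 and Arhgap11a it was 4.18% and 3.00%, against 1.74% and 2.18%. With ARVs it was 3.36% for Anln and 3.32% for Prc1, against 2.58% and 2.50%. Ect2 and Arhgap11a had 6.83% and 6.95% with ARVs, against 4.18% and 3.28%. From 3 libraries such a spread is only roughly known. DMSO replicate 2 differed from the mean of DMSO replicates 1 and 3 by -0.28 (log2) for Ect2 and -0.22 for Anln, by -0.04 for Arhgap11a and by 0.10 for Prc1. Without this library the log2 fold changes were -1.39 for Ect2, -1.14 for Arhgap11a, -1.06 for Anln and -0.97 for Prc1 (adjusted p = 2.2e-10 to 5.9e-10 from edgeR). The library was singled out after its spread was seen, so these smaller p-values are not firmer evidence. For Prc1 the SE hardly changed, from 0.0511 with all libraries to 0.0495 without this library.

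Transcript levels per gene length were compared as the deposited FPKM values. For 509 listed genes, Ect2 and Anln among them, these values did not follow from raw count, listed gene length and implied library total. In the DMSO libraries Prc1 stood highest at 56.2 ± 3.08 FPKM, followed by Anln at 46.6 ± 3.58 (SD, n = 3 each), and their libraries did not overlap. Arhgap11a followed at 25.1 ± 0.489 FPKM and Ect2 at 24.9 ± 2.45, and the deposited values of these neighbours overlapped. With ARVs the order of the levels was the same, at 28.6 ± 1.28 FPKM for Prc1, 23.9 ± 0.941 for Anln, 11.7 ± 0.945 for Arhgap11a and 10.3 ± 0.816 for Ect2. The last pair again overlapped. The listed length of Ect2 is longer than its FPKM values imply. With the listed length, Ect2 would lie below Arhgap11a in both groups, so these overlaps rest on the length used.

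Ratios of raw counts within a library were used to compare the 4 genes with each other, since such a ratio does not depend on the size factor. Of the 6 pairs, 1 parted the groups: Ect2 per Anln. By replicate number, its log2 ratio was -1.06, -1.14 and -1.09 in the DMSO libraries and -1.52, -1.30 and -1.39 in the ARVs libraries. The mean was lower with ARVs by a difference of -0.31 (exact permutation test, two-sided, p = 0.1, which is the smallest p that 3 libraries against 3 allow). Every ARVs library thus held less Ect2 per Anln than every DMSO library, in a test that cannot pass 0.05. The share of all pairs of listed genes that part the groups was not counted, so 1 of 6 is a description only.

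The other 5 pairs overlapped between the groups. The difference was -0.29 for Ect2 per Prc1 and -0.17 for Ect2 per Arhgap11a (exact permutation p = 0.2 for each), with DMSO replicate 2 among the ARVs libraries in both. Without DMSO replicate 2 these differences were -0.42 and -0.25, and without DMSO replicate 3 the latter was -0.11. For Arhgap11a the difference was -0.14 per Anln and -0.13 per Prc1 (exact permutation p = 0.2 for each). The former was -0.08 without DMSO replicate 2 and -0.09 without ARVs replicate 1, and the latter -0.08 without DMSO replicate 1. Anln and Prc1 differed by 0.01 in log2 ratio (exact permutation p = 1). With 1 library left out this difference lay between -0.10, without DMSO replicate 2, and 0.07, without DMSO replicate 3, so it had no stable sign.

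Each gene was also set against the summed raw counts of 17 kinetochore and checkpoint genes of the same library, which act earlier in mitosis. All 4 ratios were lower with ARVs and did not overlap between the groups. The difference in log2 ratio was -0.54 for Ect2, -0.37 for Arhgap11a, -0.25 for Prc1 and -0.23 for Anln (exact permutation test, p = 0.1 for each). For Anln the log2 ratio was, by replicate number, -1.92, -2.18 and -1.89 in the DMSO libraries and -2.21, -2.28 and -2.21 in the ARVs libraries, so that DMSO replicate 2 lay nearer to the ARVs libraries than to its own group. In all, 10 ratios were compared, and 5 of them did not overlap. The share of all listed genes whose ratio to this sum parts the groups was not counted. Within the sum the log2 fold changes ran from -0.27 for Bub3 to -1.04 for Spc25. Spc25 and Kif11 (-1.01) were close to Prc1 and Anln, so a lower ratio to the sum is not particular to the cytokinesis genes. The median log2 fold change was -0.80 for the 17 summed genes and -0.83 for the 29 other cytokinesis genes in the table. The lower ratios thus describe these 4 genes and not cytokinesis genes as a set.

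**Figure D2:**
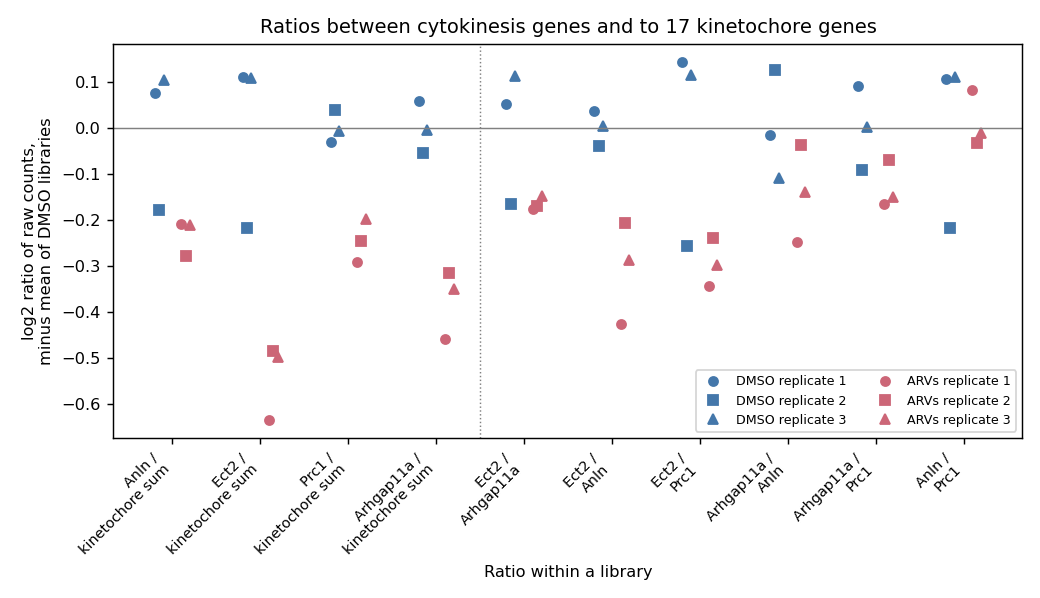
Log2 ratios of raw counts within each library, shifted so that the mean of the DMSO libraries is 0 (vertical axis), for each of the 4 genes per the sum of 17 kinetochore genes (left of the dotted line) and for the 6 pairs of the 4 genes (right). Blue is DMSO, red is ARVs, and circles, squares and triangles are replicates 1, 2 and 3; the groups part in the 4 ratios on the left and for Ect2 per Anln, and DMSO replicate 2 lies apart from the other DMSO libraries in the ratios of Ect2 or Anln to Prc1 or to the kinetochore genes.

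The other genes of cytokinesis in the table were mostly lower too. Of 67 genes on 5 lists, the table held 29, and 27 of these were lower with ARVs while 2 were higher. The median log2 fold change was -0.83, beside -0.25 over all tested genes. Of all tested genes 60.1% were lower and 100% passed in either direction with the authors' size factors. Passing was thus fixed by the making of the table, here and for each list below. The other genes of the lists are not in the table and were not analysed here. The lists were chosen with earlier results of these data known, so that their counts are a description.

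Of 11 genes of the midzone, 9 were in the table, each of them lower, with log2 fold changes from -1.0 to -0.73. Kif23, a subunit of centralspindlin, went from 1025 ± 52.1 to 558 ± 70.7 normalized counts (SD, n = 3 each). Its log2 fold change was -0.87 (SE 0.09). Racgap1 is its partner and the platform on which Ect2 docks. It was the least lowered of the 9, at -0.73 (SE 0.13), and is named here after its value was seen. Kif4a, the motor that works with Prc1 to set the length of the midzone, had -0.89 (SE 0.10). Kif20a, which carries the passenger complex to the midzone, had -0.86 (SE 0.06), and the spindle protein gene Tacc3 had -0.85 (SE 0.06).

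All 10 genes of the chromosomal passenger complex and of mitotic kinases were in the table and lower, with a median log2 fold change of -0.85. Cdca8, a subunit of the complex, had -0.91 (SE 0.08). The kinase gene Aurka went from 708 ± 52.7 to 315 ± 21.8 normalized counts (SD, n = 3 each). This was the largest fall of the list, with a log2 fold change of -1.17 (SE 0.09). Ccnb1 and Cdk1, which encode cyclin B1 and its kinase, had -1.07 (SE 0.08) and -0.93 (SE 0.08).

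The RhoA pathway and the contractile ring were less uniform. Of 21 genes, 7 were in the table, 6 lower and 1 higher, with a median of -0.51. Rhoa itself, the non-muscle myosin heavy chains Myh9 and Myh10 and all 7 septins of the list were not among the listed genes. The log2 fold change was -0.95 (SE 0.10) for Iqgap3, a scaffold of dividing cells, and -0.70 (SE 0.07) for Diaph3, a formin that builds actin filaments. Mylk, the myosin light chain kinase, had -0.76 (SE 0.06) and Myl9, a myosin light chain, had -0.51 (SE 0.05). The higher gene was Cdc42ep1, an effector of CDC42, at 0.19 (SE 0.06). Median-ratio factors, which moved the log2 fold changes of all tested genes by a median of 0.20, gave 0.39 for Cdc42ep1 and -0.31 for Myl9, and TMM gave 0.29 for Cdc42ep1. Rock1, a kinase downstream of RhoA named after its values were seen, had -0.19 (SE 0.06). It did not pass with TMM (adjusted p = 0.122 from edgeR) or with median-ratio factors, where its log2 fold change was 0.01 (adjusted p = 0.906).

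Myl9 and Mylk are also genes of smooth muscle. All 5 smooth muscle and pericyte markers in the table, of 8 on the list, were lower with ARVs (median log2 fold change -0.58), and their summed level was 104863 to 127980 normalized counts in DMSO and 74407 to 86312 in ARVs libraries. Fibroblast markers were split, 2 lower and 3 higher of 5 in the table, and summed to 159617 to 164676 in DMSO and 156447 to 158251 in ARVs libraries. Most of that sum was Col3a1, from 92538 ± 1373 to 75326 ± 2531, and Fn1, from 63755 ± 1646 to 76695 ± 1784 (SD, n = 3 each). These opposite changes largely cancel, so the fibroblast sum does not measure the share of fibroblasts. Of 14 cardiac myocyte markers, 7 were in the table, 5 lower and 2 higher, with sums of 459579 to 527656 in DMSO and 420047 to 450412 in ARVs libraries. Within this sum Myh6 went from 178135 ± 28969 to 96959 ± 10880 normalized counts (SD, n = 3 each). Myh7 went from 106617 ± 5472 to 151604 ± 1932 (SD, n = 3 each). The sum thus mixes opposite changes of these myosin genes and does not measure the share of myocytes. The endothelial list had 1 gene in the table of 8 (Tek, higher), at 310.4 to 359.8 in DMSO and 449 to 532 in ARVs libraries. Macrophage and leukocyte markers had 4 of 8, 1 lower and 3 higher, with sums of 952 to 1044 in DMSO and 1262 to 1360 in ARVs libraries. Defining myocyte markers such as Tnnt2, Actn2 and Ttn are not in the table, nor are Pecam1 and Cdh5 of endothelium or Ptprc and Csf1r of leukocytes, so the makeup of the cultures could be checked only in part. The part of these cell types in the fall of the 4 genes was not tested.

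Of 18 genes of the midbody and abscission, the last cut between the daughter cells, 3 were in the table. Cep55, the midbody protein that recruits the abscission machinery, went from 393 ± 19.5 to 195 ± 2.26 normalized counts (SD, n = 3 each). The log2 fold change was -1.01 (SE 0.09). Plk4, better known as the kinase of centriole duplication, had -0.75 (SE 0.07). Zfyve26 was higher, at 0.25 (SE 0.06), and at 0.45 with median-ratio factors.

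**Figure D3:**
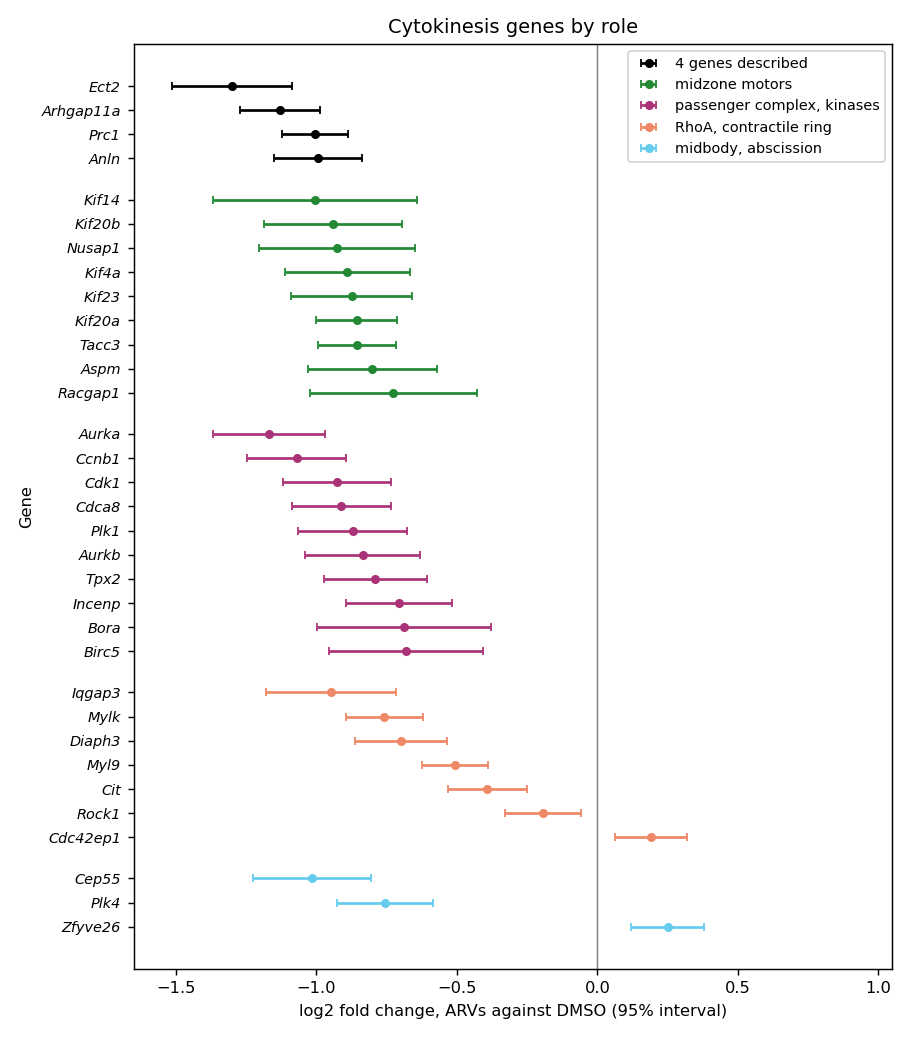
Log2 fold changes with ARVs (horizontal axis, 95% intervals from edgeR with the size factors of the authors) for the 4 genes described (black) and the 29 other cytokinesis genes in the table, coloured by role. All lie below 0 except Cdc42ep1 and Zfyve26, at 0.19 and 0.25, and Ect2 lies lowest at -1.30.

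Of 19 genes that regulate late cell cycle transcription, 7 were lower with ARVs. Most of the others are not in the table and were not analysed here, and 60.1% of all tested genes were lower. Foxm1, an activator of mitotic genes, went from 850.2 ± 43.2 to 459.8 ± 30.4 normalized counts (SD, n = 3 each), or -0.88 on the log2 scale (SE 0.07, edgeR adjusted p = 5.4e-05). Lin54, the subunit of the MuvB complex that binds the cell cycle homology region, had -0.42 (SE 0.08), and Rbl1, which encodes p107, had -0.51 (SE 0.11). Mybl2, which encodes B-Myb, had -0.36 (SE 0.07). With median-ratio factors Lin54 was at -0.22, Rbl1 at -0.31 and Mybl2 at -0.16, and Mybl2 did not pass (adjusted p = 0.0991 from edgeR).

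TTTGAA and CCAAT, the sequences searched in the promoters, were also counted in these genes. Of the 29 other cytokinesis genes, 23 had a window matched by symbol, and TTTGAA was found in 16 of them (69.6%). It was found in 9 of the 17 kinetochore and checkpoint genes (52.9%), in 20.5% of 792 listed genes that were lower with ARVs and in 8.14% of 516 that were higher. In Anln, Ect2 and Prc1 it lay close to the start site, and a match beginning in the last 50 bases before the start site was found in 7 of the 23 cytokinesis genes (30.4%). For the same window, chosen after the matches were seen, the share was 11.8% of the kinetochore and checkpoint genes. It was 6.19% of the listed genes lower with ARVs and 1.36% of those higher. CCAAT was found in 17 of the 23 cytokinesis genes (73.9%) and in 8 of the 17 kinetochore and checkpoint genes (47.1%). It was found in 44.4% of the listed genes lower with ARVs and in 33.1% of those higher. Beginning in the last 50 bases, it was found in 26.1%, 17.6%, 9.34% and 5.23% of these sets, in the same order. These shares are a description, and no test of them was made.

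Genes whose profile over the 6 libraries was most like the mean of the 4 were found by the root mean square distance of log2 normalized counts centred on each gene. Among 1644 genes with a mean of at least 100 normalized counts the median distance was 0.439. Top2a, the topoisomerase of dividing cells, was nearest at 0.0447, and its log2 fold change was -1.09 (SE 0.05). Next came Rgma at 0.0613, Hmmr at 0.0661, Ccn3 at 0.0781, Ccnb1 at 0.0810, Kif11 at 0.0816, Prr11 at 0.0841 and Col8a2 at 0.0886. Of these 8, Hmmr, Ccnb1 and Kif11 belong to the spindle or to mitotic entry, while Rgma encodes a guidance molecule, Ccn3 a secreted matrix protein and Col8a2 a collagen chain. The distances of the 4 genes from their own mean were 0.0397 for Arhgap11a, 0.0801 for Anln, 0.0883 for Prc1 and 0.114 for Ect2. Taken singly, Anln was nearest to Prr11 (0.0291), Prc1 to Shcbp1 (0.0360), Arhgap11a to Hmmr (0.0567) and Ect2 to Rrm2, a subunit of ribonucleotide reductase (0.0858). Over 6 libraries in 2 groups such a distance mostly measures the size of the fall.

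Other genes of dividing cells fell as well. Of 16 genes of proliferation and S phase, 13 were in the table, each of them lower, with log2 fold changes from -1.29 for Rrm2 to -0.31. Mki67 had -0.88 (SE 0.07) and Rrm1 -0.68 (SE 0.05). Of 18 kinetochore and checkpoint genes, 17 were in the table (Cenpa was not) and lower, from -1.04 to -0.27. These counts stand beside 60.1% lower over all tested genes, each of which had been called by the authors. Among them, Kif11 had -1.01 (SE 0.06), Bub1b -0.91 (SE 0.07), Cdc20 -0.87 (SE 0.07) and Cenpe -0.75 (SE 0.06). Rrm2, at -1.29 (SE 0.07), came nearest of these genes to Ect2.

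The fold changes of the 4 genes moved with the scaling of the libraries and kept their direction and call under each setting tried. All 1751 tested genes passed with the authors' size factors, all 1756 with DESeq2, and 1235 of 1751 with median-ratio factors. Keeping the call was thus largely fixed by the making of the table. Ect2 ranged from -1.39 without DMSO replicate 2 to -1.10 with median-ratio factors. Anln ranged from -1.06 to -0.79 under the same settings. Prc1 ranged from -1.03 to -0.81 and Arhgap11a from -1.19 to -0.93, each from the fit without ARVs replicate 2 to that with median-ratio factors.

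**Figure D4:**
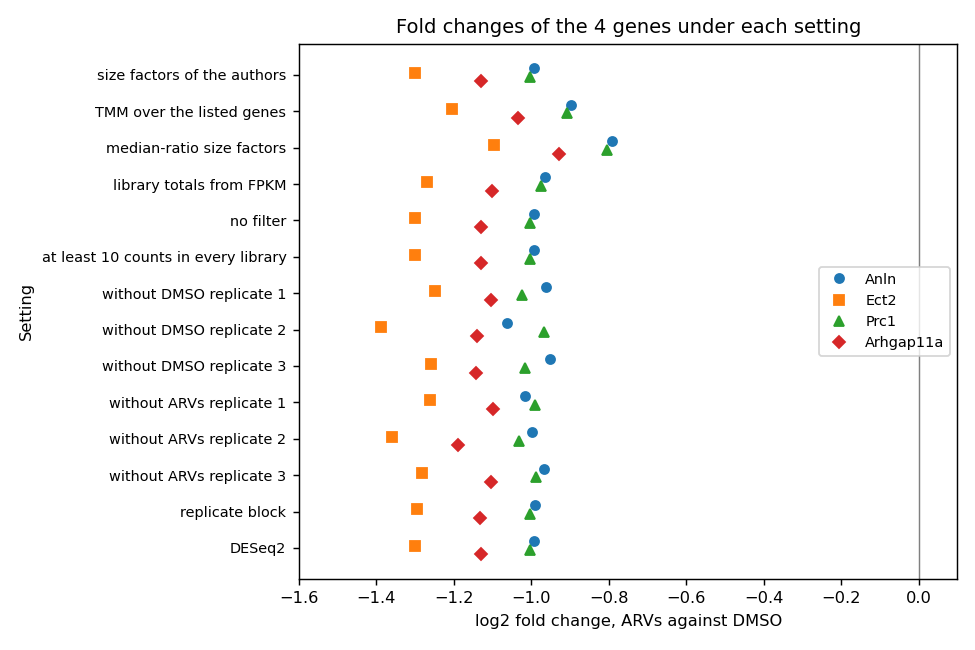
Log2 fold changes with ARVs (horizontal axis) of Anln, Ect2, Prc1 and Arhgap11a under each setting (vertical axis), with the size factors of the authors in the top line. All points lie below 0, between -1.39 and -0.79, and Ect2 is the lowest of the 4 in every line.

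Reads could be shared where genes overlap. In the RefSeq annotation Anln overlaps the protein coding gene Matcap2 and Arhgap11a an lncRNA gene, while Ect2 overlaps a pseudogene and Prc1 a snoRNA gene. None of these is in the table, and the sources do not state whether strand was used in counting.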

How the data were processed

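RNA from 3 ARVs and 3 DMSO libraries was analysed from the table of differentially expressed genes. The authors used HISAT2 for mapping, against the rat reference of release 97, and StringTie 1.3.3b for assembly; the program that counted the reads is not given in the sources used here. Per the file headers the table holds raw read counts, the authors' normalized signal (counts divided by a size factor) and FPKM values per library. Its columns of the authors' own fold changes and p-values were not used. Gene length and coordinates were taken as other deposited columns. The raw to normalized ratio was checked to be constant within each library.

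Counts were tested with edgeR 4.0.16 in R 4.3.3 (filterByExpr, glmQLFit, glmQLFTest), with library sizes set by the authors' size factors and Benjamini-Hochberg adjustment over the 1751 genes left of 1756, at an adjusted p of 0.05. These factors were preferred to TMM over the listed genes, since all of those had been called as changed. Standard errors come from the fold change and the F value, and intervals cover 95%. The script was tested on simulated data. As the origin of replicates is not stated, a p-value reflects library spread, which may be technical. Ratios were tested by exact permutation (scipy 1.17.1).

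The 4 genes and all lists were chosen with earlier results of these data known. Genes named are the 4, in each pathway list the 4 with the smallest adjusted p and any that moved against the median of the list, the 8 most alike profiles, and those marked as named after their values. A result of this rule on a withheld gene is not reported here. Alternatives were TMM, median-ratio factors, totals implied by FPKM, DESeq2 1.42.0, a threshold of 0.01, tests without a filter or with a minimum of 10 counts per library, each library left out, the replicate number as a block, and FPKM in place of counts for ratios. Same-numbered libraries are not stated to share a preparation.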

Additional observations from a re-analysis of the deposited data

How the results depend on the processing

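All 4 genes were lower under all 14 alternatives, and the largest adjusted p was 7.1e-04 (edgeR, without ARVs replicate 1). The number of lower genes over the table was 1052 with the authors' size factors, 883 with TMM and 536 with median-ratio factors, while the number of higher genes was 699 with each. Higher genes thus made up 39.9% of calls, 44.2% with TMM and 56.6% with median-ratio factors. TMM moved the log2 fold changes by a median of 0.10 and median-ratio factors by 0.20, since both take the typical listed gene as unchanged. Of the other cytokinesis genes, 26 were lower in place of 27 with TMM and with median-ratio factors, where Rock1 did not pass, and 26 at an adjusted p of 0.01. With each library left out in turn, 985 to 1050 genes were lower and 672 to 701 higher, and the 27 and 2 cytokinesis genes stayed in number. Mybl2 did not pass with median-ratio factors. No other gene named by the rule changed its call or direction.

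The deviations of same-numbered libraries from their group means correlated at -0.0065, 0.243 and 0.0665. These values do not settle whether such libraries share a preparation. With the replicate number as a block the 4 genes were lower, as were 1052 genes in all (699 higher), and 27 and 2 cytokinesis genes were lower and higher. With 3 libraries per group, ratios could not pass an exact test, and only listed genes were analysed.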

Other observations

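Of 14 kinesin genes in the table, taken by symbol after the values were seen, 12 were lower and 2 higher. Over all tested genes 60.1% were lower and 100% passed in either direction, so that each listed kinesin passed by the making of the table. The higher genes were Kif21b, from 436 ± 18.4 to 646 ± 15.6 normalized counts (SD, n = 3 each; log2 fold change 0.57, SE 0.07), and Kif1a (0.55, SE 0.13), a motor known for transport in axons. Kif21a was the least lowered, at -0.41 (SE 0.09), and the other lower kinesins, from Kif2c at -0.74 to Kif11 at -1.01, act in the spindle or on chromosomes.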
